A study of Mus musculus with 16 samples.

Results

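The genes described here are 36 genes of the unfolded protein response and of protein folding in the endoplasmic reticulum (ER), of which 34 were measured in epididymal adipose tissue of obese adult mice. They were chosen by symbol for their textbook role, and each was read from the transcript cluster of its symbol with the highest mean level. No transcript cluster carried the symbol of the remaining pair, Pdia4 and Manf. The 34 genes stand among 19505 named genes and 22206 transcript clusters on the array. They are read by arm, with 3 stress sensors, 10 measured chaperones and enzymes of the ATF6 arm, 11 genes of the IRE1-XBP1 arm including ER-associated degradation, 7 genes of the PERK-ATF4 arm and 3 KDEL receptors. The arms overlap in life, since many of these genes answer to more than 1 of them.

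All 16 mice were male pups, C57BL/6 in the labels and C57Bl/6 NCrSlc in the study's methods, with 4 pups and 4 arrays per group. NN pups came from dams with free access to chow and were nursed 8 to a litter. The dams of UN-RG pups were held to 60% of that energy in pregnancy and nursed 4 to a litter, so that undernourishment in utero (UN) and rapid infantile growth (RG) came together and cannot be told apart. From 9 wks every pup was fed a high-fat diet whose lipid share was 60%. From 11 wks to 16.5 wks of age, when the tissue was taken, pups received by mouth either vehicle (Veh) or tauroursodeoxycholic acid (TUDCA, TU) at 0.5 g per kg body weight per day, which gave 4 groups, NN-Veh and UN-RG-Veh with vehicle and NN-TU and UN-RG-TU with TUDCA. The source name of the NN-TU samples reads NN-RG-TU, but their titles and maternal diet give NN with TUDCA, and the titles were followed. Litter size is not labelled for each sample. The labels do not say which pups were littermates, so the p-values measure the spread between these 16 pups and take no account of shared dams.

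The unfolded protein response is the reaction of a cell to unfolded proteins in the ER. The sensor IRE1, encoded by Ern1, splices the mRNA of the transcription factor Xbp1, the sensor ATF6 is cut to release a transcription factor, and the sensor PERK, encoded by Eif2ak3, slows translation while favouring that of Atf4. The chaperone BiP, encoded by Hspa5, binds the sensors at rest and is itself among the main targets. TUDCA is a bile acid conjugate in use as a chemical chaperone, a small molecule that eases protein folding in the ER, which is why the levels of these genes with and without TU were of interest. The array measures total mRNA of each gene. It does not see splicing of Xbp1, cleavage of ATF6 or phosphorylation of PERK.

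Promoter sequences of 31 of the 36 genes were found in the RefSeq table for the build GRCm38.p6, each covering 250 bases before and 50 bases after the transcription start. The ER stress response element (ERSE), spelled CCAAT, 9 bases of any kind and CCACG, is bound by ATF6 together with NF-Y, and it was searched on both strands. It was present in 9 of the 31 genes (29.0%) and in 0.119% of all 32851 promoters of that length. ERSE-II, spelled ATTGG, 1 base and CCACG, was present in 2 of the 31 genes (6.45%), Herpud1 and Dnajb11, and in 0.0365% of all promoters. The C/EBP-ATF response element (CARE), spelled TGATGNAAN and bound by ATF4, was present in 5 of the 31 genes (16.1%) and in 3.95% of all promoters. The unfolded protein response element (UPRE), spelled TGACGTGG and bound by XBP1, was present in 1 gene, Kdelr3 (3.23%), and in 0.676% of all promoters. ERSE and ERSE-II both hold CCACG, and CCACG alone was present in 25 of the 31 genes (80.6%) and in 32.8% of all promoters. The genes were known as targets of these factors, so the high shares are a property of the choice of genes, and a match is a match of letters, not a measured binding site.

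The promoter of Hspa5 is shown first because Hspa5 is the central chaperone of the response, followed by those of the members whose difference passed the thresholds used below, Asns, Chac1 and Kdelr3. Each runs 5′ to 3′ on the strand of the gene, and the capitals mark the ERSE in Hspa5, the CARE in Asns and Chac1 and the UPRE, read on the opposite strand, in Kdelr3.
Hspa5, chr2:34771840-34772139, plus strand: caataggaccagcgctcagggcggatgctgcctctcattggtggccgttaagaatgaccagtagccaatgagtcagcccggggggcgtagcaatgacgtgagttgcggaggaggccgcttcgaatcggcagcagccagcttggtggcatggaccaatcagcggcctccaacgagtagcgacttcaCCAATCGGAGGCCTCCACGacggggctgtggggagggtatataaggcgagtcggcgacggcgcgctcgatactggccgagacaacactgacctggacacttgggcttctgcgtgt
Asns, chr6:7693160-7693459, minus strand: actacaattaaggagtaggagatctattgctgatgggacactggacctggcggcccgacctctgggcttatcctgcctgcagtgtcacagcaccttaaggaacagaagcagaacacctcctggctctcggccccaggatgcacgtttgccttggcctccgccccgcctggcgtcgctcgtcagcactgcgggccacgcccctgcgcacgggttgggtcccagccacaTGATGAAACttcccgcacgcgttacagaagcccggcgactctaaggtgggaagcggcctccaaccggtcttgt
Chac1, chr2:119350992-119351291, plus strand: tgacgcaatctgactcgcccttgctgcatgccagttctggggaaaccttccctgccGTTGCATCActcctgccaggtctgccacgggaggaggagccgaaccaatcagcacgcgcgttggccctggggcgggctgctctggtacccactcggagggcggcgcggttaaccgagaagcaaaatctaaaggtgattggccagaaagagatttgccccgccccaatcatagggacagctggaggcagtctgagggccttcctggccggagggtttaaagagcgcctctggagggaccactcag
Kdelr3, chr15:79516158-79516457, plus strand: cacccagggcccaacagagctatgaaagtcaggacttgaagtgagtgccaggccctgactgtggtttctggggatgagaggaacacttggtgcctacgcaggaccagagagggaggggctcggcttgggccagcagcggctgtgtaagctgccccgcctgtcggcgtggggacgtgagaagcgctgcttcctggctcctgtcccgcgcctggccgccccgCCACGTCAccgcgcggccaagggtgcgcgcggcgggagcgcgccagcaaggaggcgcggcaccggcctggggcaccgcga
In Hspa5 the ERSE began 65 bases before the start. In Asns the CARE began 23 bases before the start, in Chac1 194 bases before it, and in Kdelr3 the UPRE began 30 bases before it.

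The matches of other chaperones are shown with 12 bases on each side, because these genes had the most uniform differences with TU. The capitals mark the ERSE, which reads from CCAAT to CCACG on the gene's own strand in Canx, Pdia6 and Dnajc3 and as its reverse complement in Hsp90b1, Calr and Creld2.
Hsp90b1, chr10:86705521-86705563, minus strand: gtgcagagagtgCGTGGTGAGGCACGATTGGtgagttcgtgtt
Calr, chr8:84847063-84847105, minus strand: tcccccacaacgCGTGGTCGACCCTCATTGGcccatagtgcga
Canx, chr11:50325788-50325830, minus strand: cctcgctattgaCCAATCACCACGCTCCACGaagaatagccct
Creld2, chr15:88819508-88819550, plus strand: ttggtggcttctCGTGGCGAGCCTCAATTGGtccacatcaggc
Pdia6, chr12:17266479-17266521, plus strand: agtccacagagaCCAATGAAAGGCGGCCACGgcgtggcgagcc
Dnajc3, chr14:118937815-118937857, plus strand: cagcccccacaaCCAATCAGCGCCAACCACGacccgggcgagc
Hsp90b1 held a pair of ERSE matches, of which the one nearer to the start is shown, and Derl3 and Syvn1 also held 1 each.

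**Figure D1:**
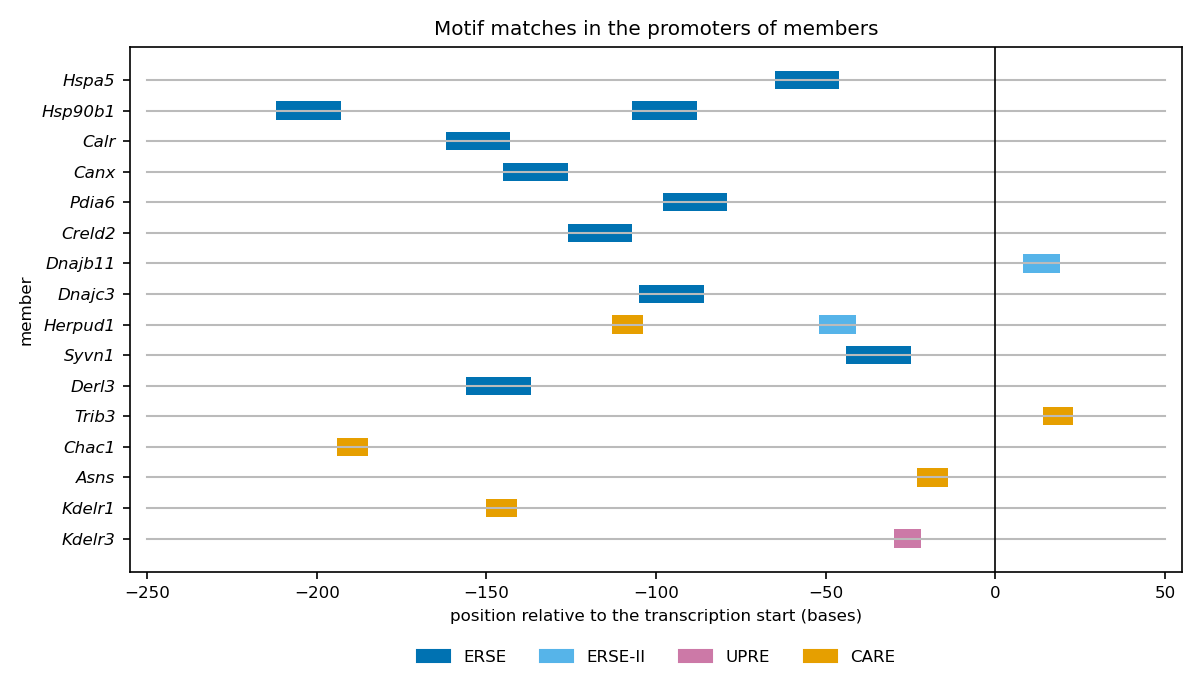
Position of each motif match in the promoters of 16 member genes, in bases relative to the transcription start (black vertical line). The ERSE matches (dark blue) all lie upstream of the start, from 212 bases before it in Hsp90b1 to 44 bases before it in Syvn1, while CARE matches (orange) lie on both sides of it.

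The tissue was fat by its markers and varied in what came with it. The mean log2 level of 10 adipocyte markers lay between 15.5 and 15.9 on all 16 arrays, and Adipoq, which encodes adiponectin, lay between 18.04 and 18.39. Pearson correlations between arrays, across transcript clusters, ranged from 0.977 to 0.995, and array medians on the log2 scale reached up to 7.16. Transcripts of motile cilia stood out on 1 array of each group (UN-RG-TU 14, UN-RG-Veh 12, NN-TU 08 and NN-Veh 02, with list means of 7.72 to 9.04 against 6.13 to 6.54 elsewhere), and testis transcripts on NN-Veh 03 and NN-TU 08 (7.24 and 6.88 against 4.64 to 5.55). In bulk tissue of this kind, fewer cells of a type and less RNA per cell cannot be told apart.

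Most members lay above the median of the background controls. In 30 of the 34 genes the mean level exceeded 6.59, the median level of 220 antigenomic controls, whose probes have no target in the mouse. The exceptions were Ppp1r15a, Derl3, Chac1 and Trib3, with mean levels of 4.08, 5.26, 6.30 and 6.49. Ppp1r15a and Derl3 lay below that median on all 16 arrays, while Chac1 and Trib3 exceeded it on 3 arrays each. Differences in these 4 genes are therefore differences between signals close to background. The means of Sesn2, Kdelr3, Ern1, Syvn1, Sdf2l1 and Creld2 exceeded between 66.8% and 91.8% of the controls. They lay below 9.64, the lowest 95th percentile of the controls on any array, so these signals were not clear of the controls either.

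Few members differed between the groups. The thresholds of the study, an unadjusted p below 0.05 and a change of 1.3-fold or more, were applied to a limma fit over all 22206 transcript clusters, and a gene is said here to have passed only when it met both. Only Kdelr3, Asns and Chac1 passed in any comparison. No member had an adjusted p below 0.05 in any comparison, and the smallest was 0.0868, for Asns with TU averaged over both backgrounds. An adjusted p below 0.05 was reached by 0.00901% of all clusters (2 clusters) in UN-RG-Veh against NN-Veh and by 0% of clusters in each other comparison. The median standard error of a member's log2 fold change was 0.152. The 95% interval lay within a 1.5-fold difference in both directions for 25 of the 34 genes in UN-RG-Veh against NN-Veh, for 24 with TU in UN-RG pups and for 21 with TU in NN pups.

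**Figure D2:**
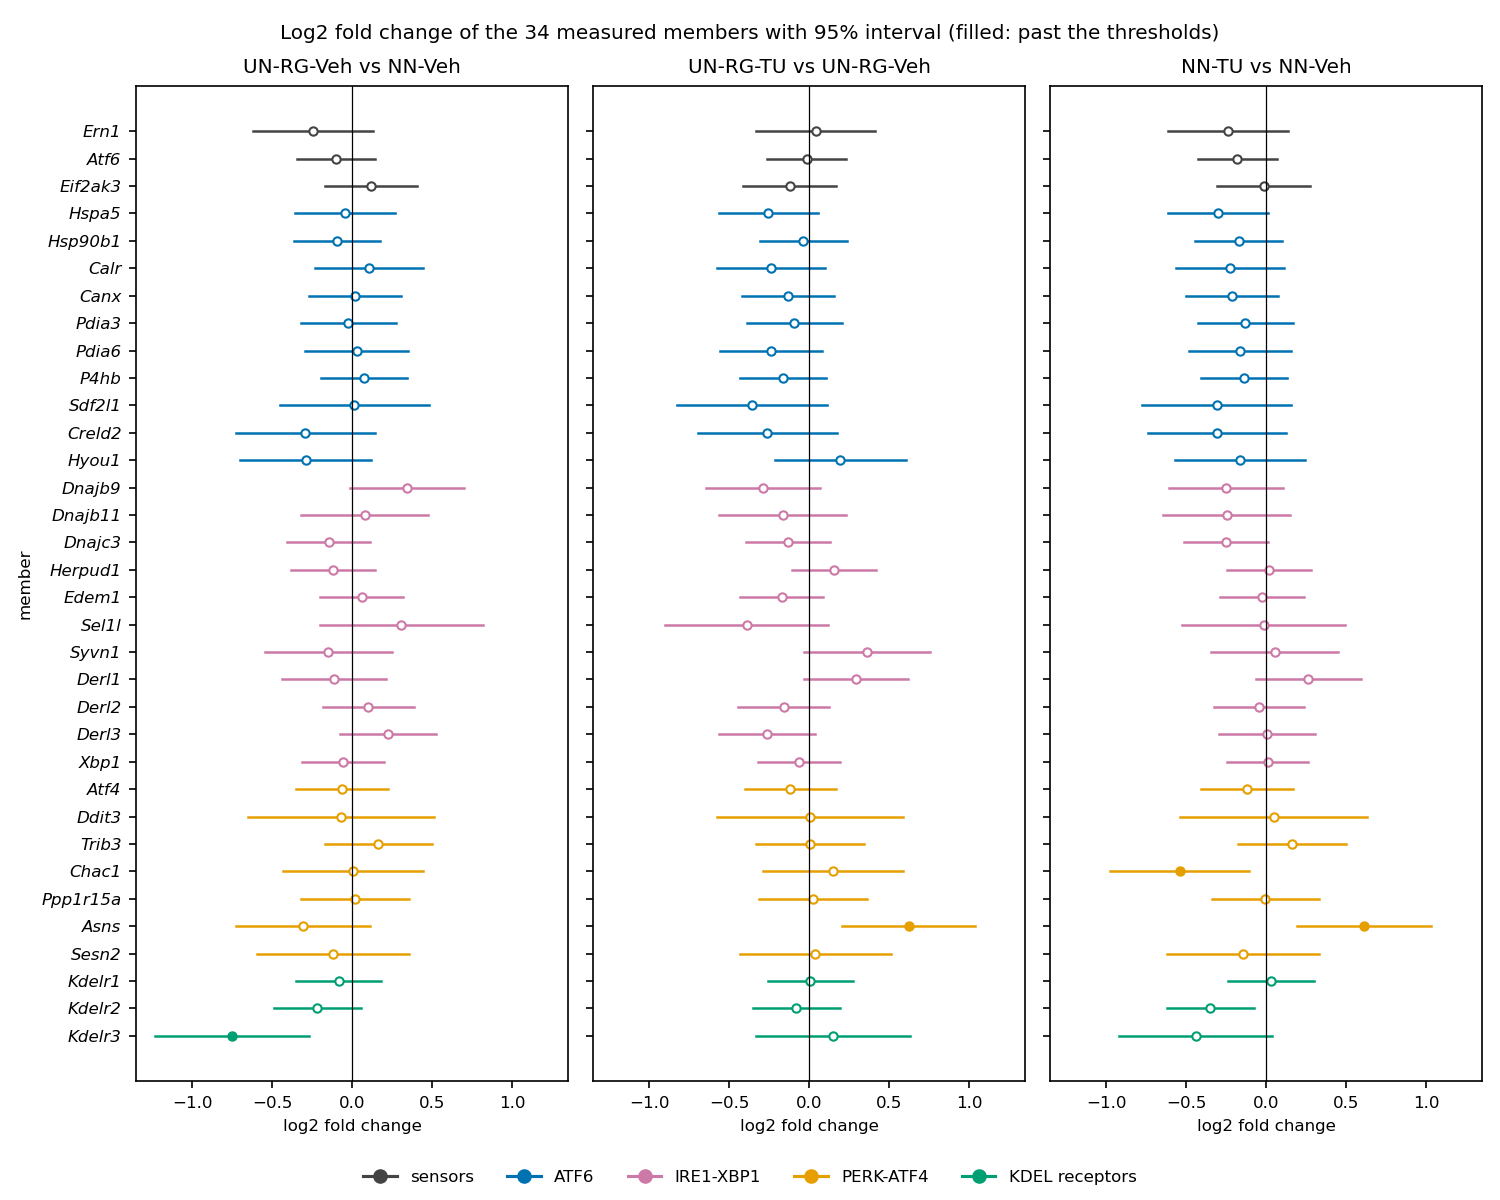
Log2 fold change (horizontal axis) of each of the 34 measured genes, coloured by arm, in UN-RG-Veh against NN-Veh, UN-RG-TU against UN-RG-Veh and NN-TU against NN-Veh, with lines for the 95% interval and filled points for genes past the thresholds. The filled points are Kdelr3 in the left panel, Asns in the middle panel, and Asns and Chac1 in the right panel, while the ATF6 arm (blue) centres on 0 at the left and lies mostly below 0 in the other panels.

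In UN-RG-Veh against NN-Veh Kdelr3 alone passed, lower by 0.75 on the log2 scale. Passing genes numbered 0 higher and 1 lower among the 34, where 2.46% of all clusters were higher and 1.99% lower. Counts this small are close to those shares. Chaperones of the ATF6 arm were centred on no difference, with a median of -0.00 and 5 of 10 genes below 0. The IRE1-XBP1 arm had a median of 0.06 and the PERK-ATF4 arm of -0.06. Over all 34 genes the median was -0.05, with 19 below 0. Over all clusters the median was 0.01 with 48.6% below 0, and over those brighter than the antigenomic median -0.03 with 57.4% below 0. The 95% intervals of the 34 genes reached from -1.23 to 0.82.

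Kdelr3 encodes 1 of 3 receptors that return escaped ER proteins from the Golgi. Its log2 level was 8.43, 8.64, 8.40 and 8.40 on the NN-Veh arrays and 8.01, 7.60, 7.40 and 7.86 on the UN-RG-Veh arrays. All 4 UN-RG-Veh pups lay below all 4 NN-Veh pups. Such separation was seen for 1.92% of all clusters in this direction and for 2.46% in the other. Its log2 fold change of -0.75 had an SE of 0.23, a 95% interval of -1.23 to -0.27, and an adjusted p of 0.552 by limma, and it stayed between -0.85 and -0.64 with any single array left out. The mean of Kdelr3, 8.02, exceeded 76.8% of the antigenomic controls. The other receptors showed smaller values, -0.22 (95% interval -0.49 to 0.06) for Kdelr2 and -0.08 (-0.35 to 0.18) for Kdelr1.

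The NN-TU arrays were low in Kdelr3 as well. Their levels were 7.94, 7.89, 8.21 and 8.06, again all below the NN-Veh arrays, which serve as controls in both comparisons. The difference was -0.44 on the log2 scale (95% interval -0.92 to 0.04), which did not pass. On the UN-RG-TU arrays the levels were 7.34, 8.40, 7.34 and 8.37. That group was split, with 2 arrays as low as the lowest UN-RG-Veh array and 2 as high as the NN-Veh arrays, and its log2 fold change against UN-RG-Veh was 0.15 (-0.33 to 0.63).

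Creb3l1, which is no member of the 36 genes, was also highest in NN-Veh. It encodes OASIS, a transcription factor held in the ER membrane that is known for driving collagen and secretory genes in bone. Its log2 levels were 10.49, 10.33, 10.55 and 10.27 in NN-Veh, 9.61, 9.68, 9.91 and 9.27 in NN-TU, 9.92, 9.62, 9.79 and 8.95 in UN-RG-Veh, against 9.87, 9.59, 10.23 and 9.84 in UN-RG-TU. Every array of the other groups lay below every NN-Veh array. Complete separation in the lower direction was seen for 1.92% of all clusters in UN-RG-Veh against NN-Veh and for 1.86% in NN-TU against NN-Veh. The share that did so in all these groups at once was not counted. Creb3l1 fell by 0.84 in UN-RG-Veh against NN-Veh (adjusted p = 0.36 by limma) and by 0.79 in NN-TU against NN-Veh (adjusted p = 0.531), and both values rest on the same 4 NN-Veh arrays.

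Dnajb9 encodes ERdj4, a co-chaperone of BiP that is a target of spliced XBP1. Its log2 level was 12.94, 13.16, 12.80 and 13.10 in NN-Veh and 13.23, 13.31, 13.40 and 13.43 in UN-RG-Veh. The groups did not overlap, and UN-RG-Veh was the higher, as for 2.46% of all clusters. No other member separated in this direction. The log2 fold change of 0.34 had a 95% interval of -0.01 to 0.70 and did not pass (adjusted p = 0.813 by limma). With TU the levels were 12.79, 13.11, 13.62 and 12.70 in UN-RG pups, which overlapped with vehicle through 1 array, and 12.62, 12.65, 12.84 and 12.91 in NN pups.

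**Figure D3:**
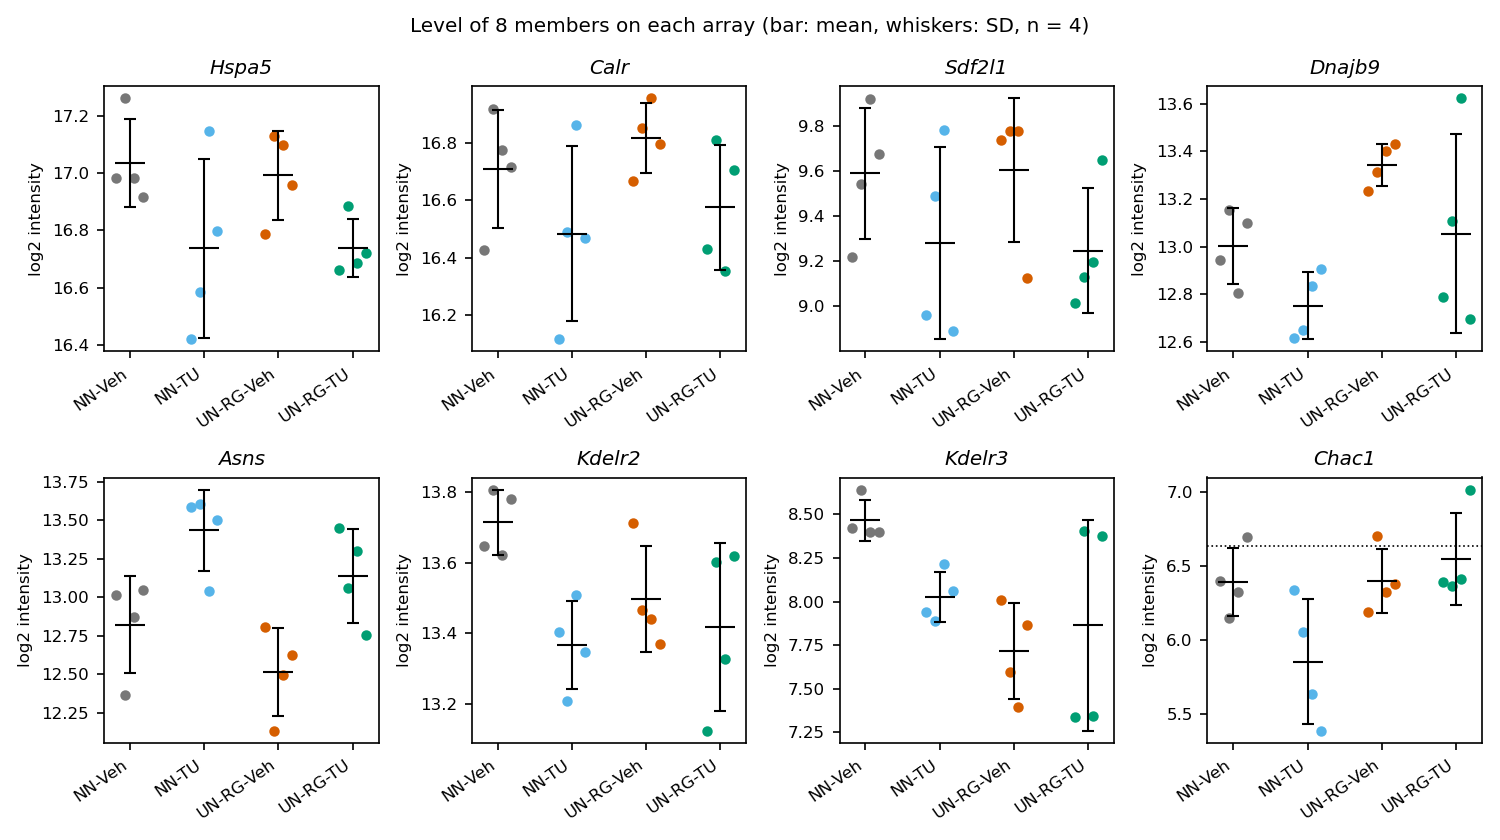
Log2 intensity (vertical axes) of 8 member genes on each of the 16 arrays, with a bar for the group mean and whiskers for the SD of 4 arrays, and a dotted line in the Chac1 panel at 6.63, the median of the 16 antigenomic array medians. All UN-RG-Veh points lie below all NN-Veh points for Kdelr3, both TU groups have the higher means for Asns, and Chac1 lies near or below the dotted line on most arrays.

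With TU in UN-RG pups 1 member, Asns, passed as higher and none as lower. Across all clusters 2.73% were higher and 3.18% lower. At an unadjusted p below 0.05 with any fold, a looser rule added after the values were seen, the count among the members was the same, 1 higher and 0 lower, beside 3.92% and 4.13% of all clusters. No member separated the 4 UN-RG-TU from the 4 UN-RG-Veh arrays completely, where 1.84% of all clusters did so in the higher direction and 2.05% in the lower. The median over the 34 genes was -0.09 with 21 below 0, beside 0.01 and 48.1% over all clusters and 50.1% over the brighter ones.

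Asns encodes asparagine synthetase, a classic ATF4 target that makes asparagine from aspartate. Its log2 level on the UN-RG-Veh arrays was 12.81, 12.14, 12.50 and 12.63, and on the UN-RG-TU arrays 13.45, 13.06, 13.30 and 12.75. The TU arrays were higher save for 1 that lay just below the highest vehicle array. This made a log2 fold change of 0.62 with an SE of 0.20, a 95% interval of 0.20 to 1.04 and an adjusted p of 0.343 by limma.

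NN pups showed a difference of the same size in Asns. The levels were 13.01, 12.36, 12.87 and 13.05 with vehicle and 13.59, 13.60, 13.04 and 13.50 with TU, and again 1 TU array lay within the range of vehicle. The difference was 0.61 on the log2 scale (95% interval 0.19 to 1.03, adjusted p = 0.778 by limma). The TU difference in UN-RG minus that in NN was 0.01 (-0.58 to 0.60). Averaged over both backgrounds, Asns was 0.62 higher with TU (0.32 to 0.91), and its adjusted p of 0.0868 was the smallest of any member. Without the 4 arrays that carried cilia transcripts the value in NN pups was 0.43 and did not pass, while the value in UN-RG pups was 0.69 and passed.

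The other members of the PERK-ATF4 arm did not move with Asns. Atf4, the transcription factor of the arm, lay at 13.29, 13.27, 13.18 and 13.16 in NN-Veh, 13.34, 13.16, 13.15 and 12.77 in NN-TU, 13.38, 13.05, 13.07 and 13.14 in UN-RG-Veh, against 12.85, 13.12, 12.93 and 13.27 in UN-RG-TU. The groups overlapped throughout, with log2 fold changes of -0.12 for TU in each background and -0.06 for UN-RG-Veh against NN-Veh. Atf4 is regulated largely by translation, which the array does not measure. Ddit3, which encodes the stress factor CHOP, lay at 10.50, 10.39, 10.52 and 10.96 in NN-Veh, 10.64, 10.76, 11.13 and 10.04 in NN-TU, 11.32, 10.54, 10.18 and 10.05 in UN-RG-Veh, against 10.54, 10.01, 10.94 and 10.64 in UN-RG-TU. Its spread within groups was wide, so that its 95% interval for TU in UN-RG pups ran from -0.58 to 0.59. Sesn2, a sestrin that restrains growth signalling in stress, had 0.04 (-0.43 to 0.51) for TU in UN-RG pups and -0.14 (-0.62 to 0.33) in NN pups. Trib3 and Ppp1r15a, near or below background, differed by at most 0.16 in any of these comparisons. The arm's median was 0.03 for TU in UN-RG pups and -0.00 in NN pups.

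TU in NN pups gave 1 member higher, Asns, and 1 lower, Chac1, past the thresholds. Of all clusters 1.36% were higher and 1.93% lower. At an unadjusted p below 0.05 with any fold Kdelr2 was added, for 1 higher and 2 lower, beside 2.16% and 2.74% of all clusters. The median over the 34 genes was -0.14 with 25 below 0, beside -0.00 and 50.3% over all clusters and 55.5% over those brighter than the antigenomic median.

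Chac1 encodes an enzyme that breaks down glutathione and is a target of ATF4 and CHOP. Its log2 level was 6.40, 6.15, 6.32 and 6.70 in NN-Veh and 6.34, 6.05, 5.63 and 5.38 in NN-TU. These groups overlapped, and every array of NN-TU lay below the antigenomic median. TU pups had a log2 fold change of -0.54 (95% interval -0.98 to -0.10, adjusted p = 0.875 by limma). In UN-RG pups the levels were 6.19, 6.71, 6.33 and 6.38 with vehicle and 6.39, 6.36, 6.42 and 7.02 with TU. UN-RG-TU lay above NN-TU on every array, as did 0.959% of all clusters (0.932% in the lower direction), with a log2 fold change of 0.70 (0.26 to 1.13), and the TU difference in UN-RG minus that in NN was 0.69 (0.07 to 1.31). Neither came near an adjusted p of 0.05 by limma. The call in NN pups was lost in 6 of 24 alternatives and that for the difference of the TU differences in 8 of 22. Since the signal is near background, the sizes of these differences are poorly fixed.

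Kdelr2 was 13.65, 13.81, 13.62 and 13.78 on the NN-Veh arrays and 13.40, 13.21, 13.51 and 13.35 on the NN-TU arrays. It is the second receptor of the family, and its groups did not overlap, as for Kdelr3. Complete separation in NN pups was seen for 1.86% of all clusters in the lower direction and 1.74% in the higher. The log2 fold change of -0.35 (95% interval -0.62 to -0.08, adjusted p = 0.858 by limma) was short of the fold threshold of 1.3. In UN-RG pups it was -0.08 (-0.35 to 0.19), on levels of 13.71, 13.47, 13.44 and 13.37 with vehicle and 13.12, 13.60, 13.33 and 13.62 with TU.

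Chaperones of the ATF6 arm lay lower with TU in both backgrounds, each by a small amount. In UN-RG pups 9 of the 10 genes were below 0, with a median log2 fold change of -0.20, the exception being Hyou1, a large chaperone of the Hsp70 class, at 0.20 (95% interval -0.21 to 0.60). In NN pups all 10 were below 0, from -0.31 to -0.13, with a median of -0.19. None of the 10 passed in either background. The comparisons share no arrays. Over all clusters 28.4% were lower with TU in both backgrounds, and over those brighter than the antigenomic median 34.7%, beside 9 of 10 genes of this arm and 19 of all 34 members. These genes rise and fall together from mouse to mouse, so that their number does not add up as independent observations would.

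Hspa5 shows the size of this difference. Its log2 level was 16.98, 17.26, 16.98 and 16.92 in NN-Veh and 16.42, 16.58, 17.15 and 16.80 in NN-TU. NN-TU was the lower on 3 arrays, and the fourth, NN-TU 07, was among the highest of all. In UN-RG pups Hspa5 was 16.79, 17.13, 17.10 and 16.96 with vehicle and 16.66, 16.88, 16.68 and 16.72 with TU. The ranges overlapped here by 1 array on each side. The log2 fold change was -0.30 (95% interval -0.61 to 0.01) in NN pups and -0.25 (-0.57 to 0.06) in UN-RG pups. The average of -0.28 (-0.50 to -0.06) had an adjusted p of 0.334 by limma, and it was -0.28 without the 4 arrays with cilia transcripts as well. Without those arrays the separate values shifted in opposite directions, to -0.24 in NN pups and -0.32 in UN-RG pups. Between UN-RG-Veh and NN-Veh Hspa5 differed by -0.04 (-0.36 to 0.27).

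Sdf2l1 and Creld2, small ER proteins that are among the most stress-responsive genes, had the largest negative values of the arm. Sdf2l1 lay at 9.22, 9.54, 9.92 and 9.67 in NN-Veh, 8.96, 9.49, 9.78 and 8.89 in NN-TU, 9.74, 9.78, 9.78 and 9.13 in UN-RG-Veh, against 9.02, 9.13, 9.20 and 9.65 in UN-RG-TU. Each group held at least 1 array inside the range of the group it was compared with. The log2 fold change with TU was -0.36 (95% interval -0.82 to 0.11) in UN-RG pups and -0.31 (-0.77 to 0.16) in NN pups. Creld2 had -0.26 (-0.70 to 0.17) and -0.31 (-0.74 to 0.13). The lectin chaperone Calr, which with Canx folds glycoproteins, had -0.24 (-0.58 to 0.10) and -0.22 (-0.56 to 0.11). The disulfide isomerases Pdia3, Pdia6 and P4hb and the chaperones Canx and Hsp90b1 lay between -0.24 and -0.04 in UN-RG pups and between -0.21 and -0.13 in NN pups.

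**Figure D4:**
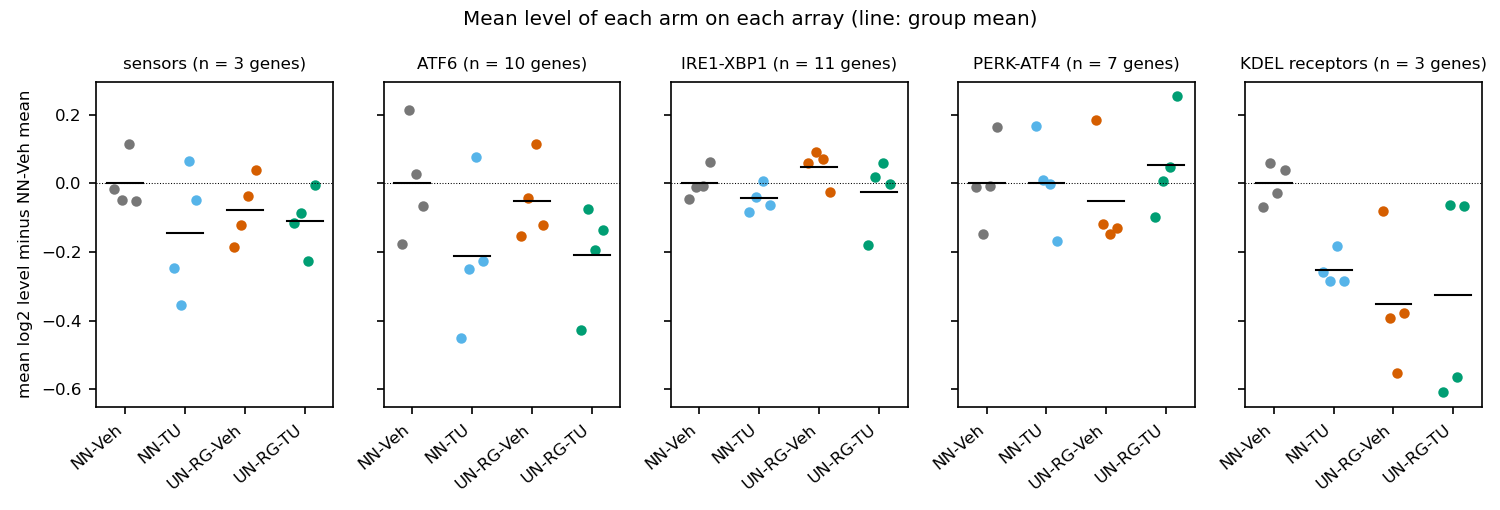
Mean log2 level of each arm's genes on each array, minus the mean of the NN-Veh arrays (vertical axis, dotted line at 0), with a line for each group mean. In the ATF6 panel both TU groups centre near -0.2 with 1 NN-TU array at 0.08, the IRE1-XBP1 panel stays close to 0 in every group, and the KDEL receptors are below 0 on every array outside NN-Veh.

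The difference in the ATF6 arm was not the same from array to array. Relative to the NN-Veh mean, the mean of the 10 genes was -0.18, 0.21, 0.03 and -0.06 in NN-Veh, -0.45, -0.25, 0.08 and -0.23 in NN-TU, -0.15, -0.04, 0.12 and -0.12 in UN-RG-Veh, against -0.43, -0.07, -0.19 and -0.14 in UN-RG-TU. On NN-TU 07 all 10 genes lay above the mean of their own group and on NN-TU 05 none did. The mean log2 level of 11 fibroblast and matrix markers was 13.79, 13.93, 14.002 and 13.68 in NN-Veh, 13.15, 13.42, 13.77 and 13.68 in NN-TU, 13.29, 13.58, 13.80 and 13.72 in UN-RG-Veh, against 13.17, 13.81, 13.56 and 13.85 in UN-RG-TU. The lowest and highest arrays of NN-TU (05 and 07) and of UN-RG-Veh (09 and 11) and the lowest of UN-RG-TU (13) were the same in both measures, while the lowest and highest of NN-Veh and the highest of UN-RG-TU were different arrays. In the matrix list 3 of 11 genes passed as lower with TU in NN pups (Col6a3, Col3a1 and Col6a1), beside 1.93% of all clusters. The median of the list was -0.39 in NN pups and -0.11 in UN-RG pups, where none passed as lower. There 1 marker, Pi16 (1.12), passed as higher, beside 2.73% of all clusters. In UN-RG-Veh against NN-Veh the list had a median of -0.30, where that of the ATF6 arm was -0.00. Only Fn1 (-0.61) passed there, beside 1.99% of all clusters lower. The part of the matrix list in the chaperone values was not tested.

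Macrophage markers moved with TU too. Of 15 markers 5 passed as lower in UN-RG pups (median -0.52) and 4 in NN pups (median -0.30), beside 3.18% and 1.93% of all clusters. Among them were C1qa, C1qb and C1qc, the chains of complement C1q, and the Fc receptor gene Fcgr1. The mean log2 level of the list lay between 12.41 and 12.50 in UN-RG-Veh and between 11.40 and 12.35 once TU was given, and in NN pups between 11.67 and 12.45 with vehicle and 11.01 and 12.49 with TU. Mesothelium markers ran the other way in UN-RG pups, with 8 of 13 past the thresholds as higher with TU (median 1.14), beside 2.73% of all clusters. The part of either list in the chaperone values was not tested. Plasma cells carry very high levels of ER chaperones. The mean log2 level of 10 B and plasma cell markers lay between 5.72 and 6.32 across the arrays, with 1 or 2 of the 10 above the antigenomic median on each. The defining gene Mzb1 lay between 4.35 and 4.83, Jchain between 4.55 and 10.73, and Sdc1, which epithelial cells also express, between 8.89 and 10.56. Jchain was highest on UN-RG-Veh 11, where the ATF6 arm's mean relative to NN-Veh was 0.12. It was next highest, at 9.23, on NN-Veh 04, where that mean was -0.06. The part of this list in the chaperone values was not tested.

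With TU averaged over NN and UN-RG pups, 1 member was higher past the thresholds, Asns, and none was lower, beside 1.55% and 2.41% of all clusters. At an unadjusted p below 0.05 with any fold, 2 members were higher (Asns and Derl1) and 5 lower (Hspa5, Dnajb9, Dnajc3, Sdf2l1 and Kdelr2). The same rule took 4.5% of all clusters as higher and 5.33% as lower. The 5 lower genes had averages between -0.33 and -0.19, with 95% intervals below 0, and the smallest adjusted p among them was 0.334 by limma. Over all 34 genes the median was -0.11 with 25 below 0, beside 0.01 and 48.0% over all clusters and 52.8% over the brighter ones.

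No stress sensor passed in any comparison. With TU in NN pups all 3 lay below 0, from -0.24 to -0.02, with a median of -0.18. With TU in UN-RG pups the median was -0.02. Ern1 lay at 9.17, 9.23, 9.46 and 9.31 in NN-Veh, 8.74, 8.79, 9.29 and 9.39 in NN-TU, 8.89, 8.81, 9.25 and 9.23 in UN-RG-Veh, against 9.22, 9.34, 8.69 and 9.10 in UN-RG-TU. The groups overlapped, and the log2 fold changes were -0.25 (95% interval -0.62 to 0.13) for UN-RG-Veh against NN-Veh, -0.24 (-0.61 to 0.13) for TU in NN pups and 0.04 (-0.33 to 0.42) for TU in UN-RG pups. Atf6 lay at 12.63, 12.36, 12.47 and 12.60 in NN-Veh, 12.50, 12.14, 12.45 and 12.25 in NN-TU, 12.25, 12.49, 12.45 and 12.47 in UN-RG-Veh, against 12.46, 12.23, 12.43 and 12.48 in UN-RG-TU. Its groups overlapped in every comparison, and its log2 fold changes lay between -0.18 and 0.06. Eif2ak3 lay at 11.30, 11.42, 11.56 and 11.08 in NN-Veh, 11.17, 11.16, 11.61 and 11.36 in NN-TU, 11.45, 11.49, 11.34 and 11.56 in UN-RG-Veh, against 11.12, 11.32, 11.34 and 11.56 in UN-RG-TU. It differed by 0.12 (-0.17 to 0.41) between UN-RG-Veh and NN-Veh and by -0.12 (-0.41 to 0.17) with TU in UN-RG pups.

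Xbp1 was among the most level of all members. Its total mRNA lay at 14.90, 15.08, 15.05 and 14.997 in NN-Veh, 14.91, 15.07, 15.19 and 14.90 in NN-TU, 15.18, 14.97, 14.84 and 14.82 in UN-RG-Veh, against 14.67, 14.88, 14.96 and 15.06 in UN-RG-TU. The ranges of all 4 groups overlapped. The log2 fold change was -0.06 (95% interval -0.31 to 0.20) for UN-RG-Veh against NN-Veh, -0.06 (-0.32 to 0.19) for TU in UN-RG pups and 0.01 (-0.25 to 0.26) for TU in NN pups.

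Genes of ER-associated degradation, which draws misfolded proteins out of the ER for destruction, ran both ways and none passed. With TU in UN-RG pups the ubiquitin ligase gene Syvn1 and the channel gene Derl1 had positive values of 0.36 (95% interval -0.03 to 0.76) and 0.29 (-0.03 to 0.62). Sel1l, the partner of Syvn1 in the same ligase complex, had -0.39 (-0.90 to 0.12). In NN pups Derl1 had 0.26 (-0.06 to 0.59) while Syvn1 and Sel1l had 0.05 and -0.02. Herpud1, the lectin-like factor gene Edem1 and Derl2 lay between -0.17 and 0.16 in both. Derl3, at background, had -0.26 and 0.01. The co-chaperones of the arm lay lower with TU in both backgrounds, Dnajb9 at -0.29 and -0.25, Dnajb11 at -0.16 and -0.25 and Dnajc3 at -0.13 and -0.25 in UN-RG and NN pups.

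Among the members, the direct comparison of the TU groups and the comparison of the TU differences gave only Chac1. In UN-RG-TU against NN-TU 1 of 34 genes was higher and none lower, beside 1.16% and 0.675% of all clusters, with a median of 0.01. The TU difference in UN-RG minus that in NN passed for 1 gene in the positive and none in the negative direction, beside 1.36% and 1.64% of all clusters. Its median over the members was 0.03. Across the 34 genes the TU differences in the separate backgrounds had a Pearson correlation of 0.50, and over all clusters of 0.34, both across genes, which are not independent replicates.

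Members with an ERSE or ERSE-II in the promoter had the lower values with TU as a group. The 11 measured genes with such a match had a median of -0.16 in UN-RG pups, with 9 below 0, and of -0.21 in NN pups, with 8 below 0, as log2 fold changes. The 19 genes without one had medians of -0.06 and -0.04. Of the 11, Hspa5, Hsp90b1, Calr, Canx, Creld2 and Pdia6 belong to the ATF6 arm and the others to the IRE1-XBP1 arm. These values therefore partly repeat those of the ATF6 arm. The 5 genes with a CARE had a median of 0.15 in UN-RG pups, with none below 0, and of 0.03 in NN pups, where they spread from -0.54 in Chac1 to 0.61 in Asns. The genes with the motif thus included both the highest and the lowest value in NN pups.

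Neighbouring pathways held few passing genes. Of 17 other genes of ER-associated degradation none passed in any comparison. Of 29 other folding enzymes of the ER, 2 were lower with TU in NN pups, beside 1.93% of all clusters. They were Txndc11 (-0.46) and the collagen chaperone gene Serpinh1 (-0.40). Of 31 genes of translocation and glycosylation only Ostc, a subunit of the oligosaccharyltransferase, passed. It had -0.51 with TU in NN pups, beside the same 1.93% of all clusters. Medians of that list were -0.06 with TU in UN-RG and -0.17 in NN pups, with 22 and 24 genes below 0. The lower values with TU were thus not particular to the chaperones. Of 28 genes of transport from ER to Golgi, the coat genes Sec24b (0.43) and Sec24d (-0.44) passed in opposite directions with TU in UN-RG pups. In that comparison 2.73% of all clusters were higher and 3.18% lower. Medians of the transport list were -0.09 with TU in UN-RG and -0.13 in NN pups, with 20 and 24 genes below 0.

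Other ATF4 targets did not follow Asns as a group. A list of 26 further targets held mainly genes for amino acid supply and tRNA charging. With TU in UN-RG pups Stc2, a secreted stanniocalcin, was higher (0.73) and the lipoprotein receptor gene Vldlr lower (-0.49). Neither is a gene of amino acid supply or tRNA charging. The median of the list was -0.10 with 17 below 0. In NN pups none passed. Of 32 further stress regulators, Bcl2l11 (-0.53), which encodes the death-promoting protein BIM, the signalling adaptor gene Traf2 (-0.45) and Nfya (-0.39), a subunit of the factor NF-Y that binds the CCAAT part of the ERSE, passed as lower in UN-RG pups with TU. None of these had an adjusted p below 0.05 by limma. With TU in UN-RG pups 2.73% of all clusters passed as higher and 3.18% as lower.

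Among cytosolic heat shock proteins, a response apart from that of the ER, 3 of 16 genes were lower in UN-RG-Veh pups against NN-Veh, Hspb8 (-0.58), Hspa1b (-0.43) and Hspa4l (-0.39), with a median of -0.17 and 13 below 0. Of all clusters 1.99% were lower in UN-RG-Veh against NN-Veh. With TU in UN-RG pups Hspb8 was higher (0.61), where 2.73% of all clusters were higher. That comparison shares the UN-RG-Veh arrays with the first. Of 15 mitochondrial chaperones and proteases none passed in UN-RG-Veh against NN-Veh or with TU in UN-RG pups. The protease gene Clpp was higher with TU in NN pups (0.41), where 1.36% of all clusters were higher.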

How the data were processed

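Total RNA of 16 epididymal fat samples was hybridised to Clariom S mouse arrays by the authors, who processed the scans in Expression Console and Transcriptome Analysis Console; the summary method and its versions are not given in the sources used here. The deposited values were linear intensity values per transcript cluster, and log2 was taken here with no further scaling in the main fit. Array medians then lay between 6.997 and 7.16, and those of the antigenomic controls between 6.27 and 6.85. The table held 22520 probe sets, of which 314 controls were left out. Of the 22206 clusters tested, 19572 had 1 gene symbol in the platform annotation and 2634 had none.

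A limma model (version 3.58.1, under R 4.3.3) with 1 mean per group was run on all 16 arrays, without covariates because no batch or litter is labelled, and the Benjamini-Hochberg adjustment covered every cluster tested. Arrays give no depth, so precision rests on 4 arrays per group. Ddit3 had several clusters. Values for every array are given for members past the thresholds in a main comparison and for the main regulators, and the other members by range, with further per-array values chosen after they were seen. Members and gene lists were chosen with earlier results of these data known. Promoter motifs were searched with Python 3.11.15. Alternatives were another scaling, a filter on dim clusters, other variance models, the methods' t-test and each array left out.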

Additional observations from a re-analysis of the deposited data

Results flagged for a closer look

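In 136 sets of 4 arrays (34 genes in 4 groups), 5 held a value far from the other 3, where chance alone gives about 1 in 20 sets. Sdf2l1 was 9.13 on UN-RG-Veh 12, with the others at 9.74 to 9.78, and that array carried cilia transcripts. Derl1 was 13.58 on UN-RG-Veh 09, with the others at 13.24 to 13.29. Chac1 was 7.02 on UN-RG-TU 16, with the others at 6.36 to 6.42. Ppp1r15a, below background throughout, was 3.83 on NN-Veh 01, with the others at 4.14 to 4.15. Kdelr3 was 8.64 on NN-Veh 02, with the others at 8.40 to 8.43, so that the array farthest out lies on the side away from the UN-RG-Veh values. NN-Veh 02 also carried cilia transcripts, and without the 4 arrays that did, Kdelr3 in UN-RG-Veh against NN-Veh was -0.74. The TU difference in Chac1 differed between backgrounds by 0.69 on the log2 scale, in a gene whose signal was near background.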

How the results depend on the processing

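No member past the thresholds changed direction under any alternative. Small medians over the members did change sign, from -0.050 to 0.017 in UN-RG-Veh against NN-Veh without the arrays with cilia transcripts, from 0.010 to as low as -0.032 in UN-RG-TU against NN-TU without NN-TU 05, and from 0.030 to -0.011 with median centring and -0.013 with quantile normalization for the difference of the TU differences. Kdelr3 in UN-RG-Veh against NN-Veh, Asns with TU in UN-RG pups and Asns averaged over both backgrounds passed under every alternative run. Without the dim clusters, among them Chac1, 1 member passed with TU in NN pups, 0 in UN-RG-TU against NN-TU and 0 for the difference of the TU differences. That last count was also 0 with each array centred on its median. Without the 4 arrays with cilia transcripts, an alternative chosen after seeing the data, 2 members passed in UN-RG-Veh against NN-Veh (Asns was added), 3 with TU in UN-RG pups (Creld2 and Sel1l, both lower, were added), 0 with TU in NN pups and 2 on average (Creld2 was added), and the median of the difference of the TU differences was -0.075, beside 0.030 with all arrays. Without the 2 arrays with testis transcripts, also chosen after seeing the data, 1 passed with TU in NN pups and 0 for the difference. With single arrays left out, the count ranged from 1 to 3 in UN-RG-Veh against NN-Veh (3 without NN-Veh 02), from 1 to 3 with TU in UN-RG pups (3 without UN-RG-TU 14 or 16), from 1 to 5 with TU in NN pups, from 1 to 2 in UN-RG-TU against NN-TU, from 0 to 2 for the difference and from 1 to 2 on average. The 5 came without NN-TU 07, when Hspa5, Dnajb11, Sdf2l1 and Kdelr2 passed as lower and Chac1 no longer passed, beside 1.97% of all clusters higher and 3.13% lower in that fit. The median of the difference ranged from -0.0055 to 0.12, the latter without NN-TU 07. The causes were not tested. The methods' t-test took 1, 1, 2 and 1 members past the thresholds in the pairwise comparisons, beside 721, 806, 546 and 225 of 22206 clusters, and none after Benjamini-Hochberg. No paired analysis was possible because the replicate numbers are not shared between groups.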
